A study of Mus musculus with 16 samples.

Results

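The genes described here make, break down, package and sense GABA (gamma-aminobutyric acid) in mouse pancreatic islets. The list names 7 genes: Gad1 and Gad2 for synthesis, Abat for breakdown, Slc32a1 for vesicular packaging, Gabbr1 and Gabbr2 for the GABA-B receptor, and Gabra4 for the GABA-A receptor. Of these, 6 had at least 1 probe set that named the gene alone in the platform annotation used here, and they are 6 of the 18193 genes measured. Gabbr2 was not analysed here. The 6 genes had 16 probe sets between them. Each gene is represented by its brightest probe set over the 16 arrays, and the probe sets were thus chosen by their mean signal, which does not use the genotype. The list itself was drawn up with earlier results of these data known, so its counts describe these genes and support nothing further.

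The arrays came from isolated islets of 8 mutant and 8 control mice, 1 array per preparation. All animals carried RIPcreER, a tamoxifen-inducible Cre recombinase driven by the rat insulin promoter and so directed at beta cells. Mutants were Insm1 flox/lacZ and controls were Insm1 flox/+, on a mixed C57BL/6, 129/ola and CBA/J background. Insm1 encodes a transcription factor with zinc fingers that is made in endocrine cells. Every mouse, control or mutant, received a 25 mg tamoxifen pellet releasing over 21 days when it was 4 to 5 weeks old, and its islets were taken at 8 to 12 weeks. Control beta cells could therefore also lose their floxed allele and keep 1 wild-type allele, and only the mutants carried the lacZ allele in all their cells. Islets hold alpha, delta and other cells beside beta cells, and no cells were sorted.

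GABA is formed from glutamate by glutamate decarboxylase, which exists as GAD67, the product of Gad1, and GAD65, the product of Gad2. The mitochondrial transaminase encoded by Abat starts its breakdown. In neurons the vesicular transporter encoded by Slc32a1 loads it into synaptic vesicles. GABA-A receptors are chloride channels built of several subunits, while the GABA-B receptor is a G protein-coupled pair of the Gabbr1 and Gabbr2 products. Pancreatic beta cells are a major site of GABA outside the nervous system, and GAD65 is a well-known autoantigen of human type 1 diabetes.

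Values are log2 signals as deposited, so a difference of 1 is a doubling, and each difference is the mutant mean minus the control mean, with n = 8 arrays per group. A gene is said to have risen or fallen where limma's adjusted p over all 18193 genes was under 0.05. The array medians lay between 6.29 and 6.35, and signals under 6.29 are called dim here, since background compresses differences there. In all, 1594 genes passed (8.76%), of which 848 were lower (4.66%) and 746 higher (4.10%). Insm1 itself read 11.26 ± 0.23 (SD) in controls and 11.02 ± 0.22 in mutants (difference −0.25 ± 0.11 SE, limma adjusted p = 0.182), and it checks no label, since the sources used here do not say where its probes lie relative to the deleted part. Among marker lists, 7 of 9 measured beta cell genes fell and 0 rose, and 3 of 5 alpha cell genes rose and 0 fell. Of 6 delta and PP cell genes 1 rose and 0 fell. Of 8 stroma genes 2 rose and 1 fell, and of 5 duct genes 0 rose and 1 fell. The mean of the 10 measured acinar genes ran from 12.50 to 14.59 on control arrays and from 9.00 to 14.27 on mutant arrays, and was lower in the mutant of all 8 same-numbered pairs. The mean of the 12 immune cell genes stood highest on the arrays of mutant 1, mutant 3 and control 1 (9.68, 9.12 and 8.60, against 7.03 to 8.04 elsewhere). The mean of the 9 beta cell genes ran from 12.48 to 12.71 on control arrays and from 11.88 to 12.19 on mutant arrays. It was lower in the mutant of all 8 same-numbered pairs. Glp1r was the dimmest of the 9 genes (6.41 at its lowest).

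Only 1 of the 2 synthesis genes gave a bright signal and passed the test, so the 250 bases before the RefSeq start site of each are shown side by side. They come from GRCm38.p6, on the plus strand, at chr2:70561879-70562128 for Gad1 and chr2:22622077-22622326 for Gad2. Both windows lie inside the span annotated for their gene, which begins further upstream. Capitals mark matches to CANNTG, the E-box core bound by basic helix-loop-helix factors such as Neurod1, which reads the same on both strands.
Gad1: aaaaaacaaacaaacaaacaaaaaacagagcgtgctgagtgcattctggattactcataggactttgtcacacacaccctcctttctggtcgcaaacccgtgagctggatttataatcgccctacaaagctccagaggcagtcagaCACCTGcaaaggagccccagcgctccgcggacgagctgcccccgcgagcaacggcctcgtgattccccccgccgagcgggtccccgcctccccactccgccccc
Gad2: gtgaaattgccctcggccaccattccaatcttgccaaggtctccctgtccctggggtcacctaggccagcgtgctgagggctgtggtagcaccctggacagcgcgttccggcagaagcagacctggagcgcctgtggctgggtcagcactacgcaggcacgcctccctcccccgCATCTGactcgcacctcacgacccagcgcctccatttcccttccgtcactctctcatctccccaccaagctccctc
Each window holds 1 such match, starting 104 bases before the start in Gad1 and 76 bases before it in Gad2, and 66.2% of all 32851 promoter windows of this length hold at least 1. The Gad2 match is also a match to the Neurod1-type letters CAGATG, searched on both strands and found in 14.4% of windows. The forkhead letters TGTTTAC, of the kind bound by Foxa2, were searched on both strands too, are present in 3.17% of windows, and were in neither of these. GC content was 58.0% for Gad1 and 64.0% for Gad2.

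Gad1 fell. Its signal ran from 10.62 through a median of 11.34 to 11.81 on control arrays, and from 9.22 through 10.35 to 10.85 on mutant arrays. Of the mutant arrays, 7 lay below the lowest control, while mutant replicate 7 (10.85) lay above control replicates 2 and 3 (10.62 and 10.77), so the groups overlapped. The means were 11.29 ± 0.44 (SD) and 10.19 ± 0.55, a difference of −1.10 ± 0.23 (SE), or 2.15-fold lower in the mutant (limma adjusted p = 0.00453). The 95% interval of the difference was −1.58 to −0.63. Mutant signal was below that of the same-numbered control in 8 of 8 pairs, as it was for 7.21% of all genes. The pairwise differences varied, from −0.19 in pair 2 to −1.87 in pair 8 and −2.17 in pair 4. Only 89 of all genes had a lower difference, and 51 of those were called. In bulk islets, fewer cells that make a transcript and less of it per cell cannot be told apart.

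The second, less bright probe set of Gad1 moved the same way. It read 7.44 to 8.77 in controls (mean 8.10 ± 0.45 SD) and 6.65 to 7.93 in mutants (7.33 ± 0.37). The difference was −0.77 ± 0.19 (SE, limma adjusted p = 0.0184 over 45037 probe sets, of which 6.08% were called), again lower in 8 of 8 pairs. Gad1 fell by 0.94 as the mean of both probe sets. With the acinar marker mean of each array as a covariate the difference of the brightest set was −0.95 (limma adjusted p = 0.0272), and without pairs 1 to 3, which hold the arrays with the highest immune marker means, it was −1.38 (adjusted p = 0.0178). The call was lost where the replicate block, which fits the 8 replicate numbers as pairs, was combined with the acinar and immune means (−1.11 ± 0.57, adjusted p = 0.749) or with a 3′ minus 5′ measure of RNA quality (−1.69 ± 0.37, adjusted p = 0.0621). That measure was 0.33 to 0.57 in controls and 0.28 to 0.47 in mutants, and lower in the mutant of every same-numbered pair. Within the block it therefore overlaps with genotype. The acinar mean, lower in the mutant of all 8 same-numbered pairs, overlaps with genotype there too. With the block alone the Gad1 difference was −1.10 ± 0.18 (SE, limma adjusted p = 0.00181). The part of each measure in the lost calls was not tested.

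Gad2 was dim in both groups. Its brightest probe set ran from 4.74 through 4.96 to 5.15 in controls and from 4.75 through 5.00 to 5.28 in mutants, under 6.29 on all 16 arrays. The groups overlapped almost fully, with 2 mutant arrays above the highest control. The difference was 0.07 ± 0.07 (SE, limma adjusted p = 0.662), with a 95% interval of −0.09 to 0.23. The other Gad2 probe set was dimmer still, at 3.64 ± 0.08 (SD) in controls and 3.70 ± 0.08 in mutants (difference 0.06 ± 0.04, adjusted p = 0.515 over probe sets). At such signals a change of Gad2 may not be visible on these arrays, so its small difference is not evidence of equal transcript.

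**Figure D1:**
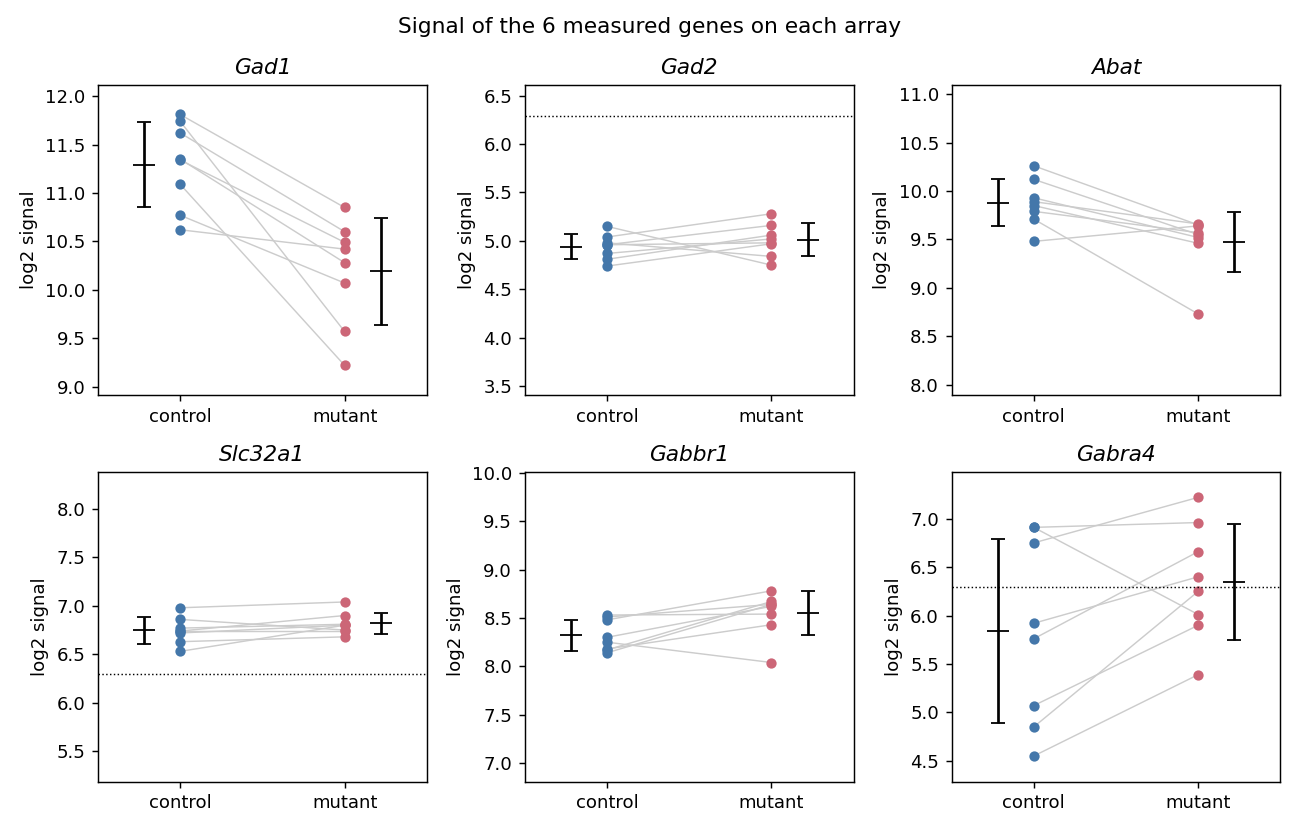
Log2 signal (vertical axis, of the same height in every panel) of the brightest probe set of each gene on each array, for 8 control (blue) and 8 mutant (red) arrays; grey lines join same-numbered arrays, black bars are the mean and SD, and the dotted line is the lowest array median, 6.29. Gad1 drops in every pair, Gad2 lies under the dotted line throughout, and Gabra4 has the widest spread in controls.

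Abat, whose product converts GABA to succinic semialdehyde, did not pass the test, with a difference near the threshold. It ran from 9.48 through 9.87 to 10.26 in controls and from 8.73 through 9.56 to 9.66 in mutants. In all, 7 of 8 controls lay above the highest mutant. Control replicate 2, at 9.48, lay among the mutants, and mutant replicate 1, at 8.73, lay well below the other mutants. The means were 9.88 ± 0.24 (SD) and 9.47 ± 0.31, a difference of −0.41 ± 0.13 (SE, limma adjusted p = 0.0583), with a 95% interval of −0.68 to −0.14. With the replicate block Abat was called lower (adjusted p = 0.0167), in 7 of 8 pairs, so that 2 of the 6 genes were then called lower, where the block called 17.6% of all genes, and 9.71% as lower. Without pairs 1 to 3, mutant replicate 1 among them, it was also called (−0.44, adjusted p = 0.0195), as it was without control replicate 2 (−0.46, adjusted p = 0.0318). The other Abat probe set was dim, at 5.09 ± 0.18 in controls and 5.11 ± 0.11 in mutants, and its difference was 0.02 ± 0.08 (adjusted p = 0.939 over probe sets). The mean of both probe sets differed by −0.19 (adjusted p = 0.154).

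Slc32a1, the vesicular GABA transporter gene, read just above the array medians and differed little. Its brightest probe set ran from 6.53 through 6.74 to 6.98 in controls and from 6.68 through 6.80 to 7.04 in mutants, and the groups overlapped over most of their range. The difference was 0.07 ± 0.07 (SE, limma adjusted p = 0.613), with a 95% interval of −0.07 to 0.21. The other 3 probe sets were dim on all 16 arrays, with control means of 5.75, 5.33 and 4.41 and differences of 0.00, 0.04 and 0.04 (adjusted p = 0.996, 0.784 and 0.827 over probe sets). One of these, at 5.33, carries the array design's suffix for probes that may match more than 1 transcript.

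Gabbr1, which encodes the GABA-binding subunit of the GABA-B receptor, did not pass the test. Its brightest probe set ran from 8.14 through 8.28 to 8.53 in controls and from 8.04 through 8.63 to 8.78 in mutants. Of the mutant arrays, 6 lay above the highest control, and mutant replicate 1 lay below the lowest. The difference was 0.23 ± 0.10 (SE, limma adjusted p = 0.167), with a 95% interval of 0.03 to 0.43 that is not adjusted for the number of genes, and mutants were higher in 7 of 8 pairs. Without mutant replicate 1, the array with the highest immune marker mean, it was called higher (0.30, adjusted p = 0.018), and likewise with the immune mean as a covariate (0.30, adjusted p = 0.0251). With the acinar mean as a covariate the difference was 0.08 (adjusted p = 0.634), and with the block it stayed uncalled (adjusted p = 0.0657). The other probe set above the array medians, at 8.02 ± 0.14 (SD) in controls and 8.13 ± 0.17 in mutants, differed by 0.10 ± 0.08 (adjusted p = 0.551 over probe sets). The last 2 were dim, with differences of −0.04 and 0.01.

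Gabra4, an alpha subunit gene of the GABA-A receptor, varied more within groups than any of the other 5 genes. It ran from 4.55 through 5.84 to 6.91 in controls and from 5.39 through 6.33 to 7.22 in mutants. Among controls, replicates 1, 2 and 8 (6.91, 6.91 and 6.75) stood above the other 5, which were all dim. Of the mutants, 4 were dim as well, and replicates 8 and 1 were highest (7.22 and 6.96). The difference was 0.51 ± 0.36 (SE, limma adjusted p = 0.472), with a 95% interval of −0.25 to 1.27, which holds both 0 and a doubling. Mutants were higher in 7 of 8 pairs, by 0.05 to 1.40, and lower by 0.90 in pair 2; the fit with the block did not call it either (adjusted p = 0.112). The dimmer probe set read 5.38 ± 0.26 (SD) in controls and 5.50 ± 0.28 in mutants (difference 0.12 ± 0.13, adjusted p = 0.673 over probe sets).

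**Figure D2:**
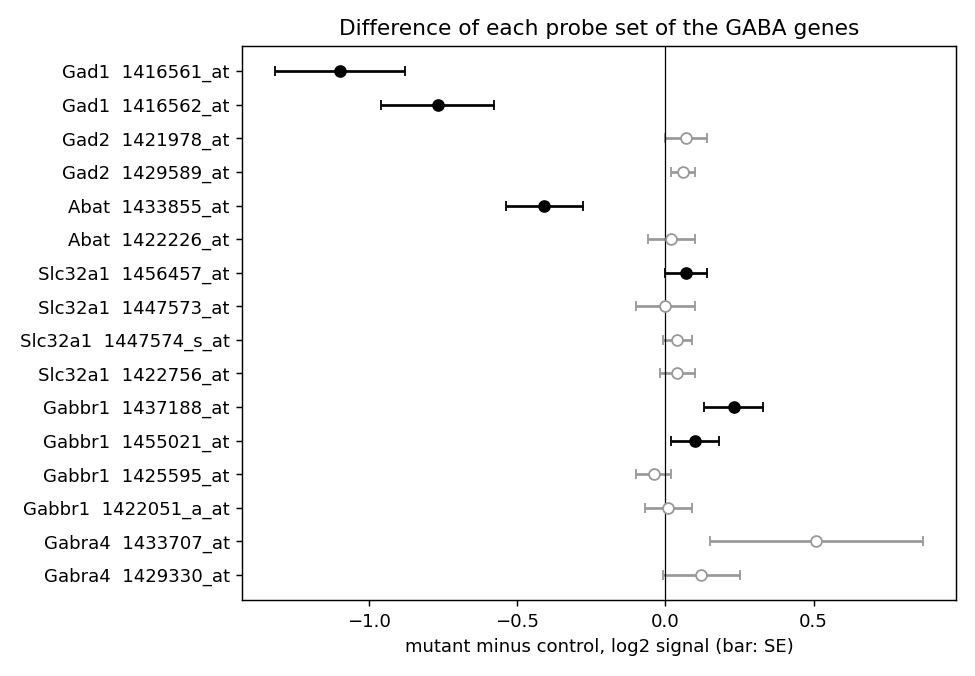
Mutant minus control difference in log2 signal (horizontal axis) of all 16 probe sets of the 6 genes, with 8 arrays per group; bars are SE, and open grey points mark probe sets whose mean lay under 6.29. Only the 2 Gad1 probe sets, at −1.10 and −0.77, passed the test over all probe sets.

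Across the 6 genes, 1 fell and 0 rose by limma's test, beside 4.66% and 4.1% of all genes, and 5 did not pass. At an unadjusted limma p under 0.05, 2 of the 6 were lower and 1 higher, beside 11.8% and 9.67% of all genes. Their median difference was 0.07 and the median of its size 0.32, against −0.006 and 0.09 over all genes. Of the 16 probe sets, 2 passed, both of Gad1, beside 6.08% of all 45037 probe sets, and 9 were dim on every array.

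Gabra4 is part of a group of GABA-A subunit genes on chromosome 5, in the RefSeq order Gabrg1, Gabra2, Cox7b2, Gabra4 and Gabrb1. This group was looked at after its values were seen. Gabrb1, next to Gabra4, rose from 5.18 ± 0.15 (SD) to 5.67 ± 0.19 (0.49 ± 0.08 SE, limma adjusted p = 0.00106), in 8 of 8 pairs. Its controls ended at 5.35 and its mutants began at 5.45, so the groups did not overlap, as was the case for 2.29% of all genes. The average of its 4 probe sets rose by 0.18 (adjusted p = 0.0103). The call of Gabrb1 was lost when the block was joined by the acinar and immune means (0.32, adjusted p = 0.854) and when it was joined by the 3′ minus 5′ signal (0.29, adjusted p = 0.497). Gabrg1 rose from 4.07 ± 0.25 to 4.57 ± 0.37 (0.50 ± 0.15, adjusted p = 0.0399). Leaving out any of 12 single arrays ended that call (adjusted p up to 0.0804), as did leaving out pairs 1 to 3 (0.39, adjusted p = 0.186), quantile normalisation (0.50, adjusted p = 0.0522), averaging both of its probe sets (0.24, adjusted p = 0.108) and the immune mean as a covariate (0.42, adjusted p = 0.0628). Fitting the block by itself kept the call (0.50 ± 0.11 SE, adjusted p = 0.00731). So did adjusting for acinar signal (0.77 ± 0.12 SE, adjusted p = 0.000598). Of 11 alternatives other than leaving out 1 array, 5 kept it. It was lost where the block was combined with the acinar and immune means (0.52, adjusted p = 0.834) or with the 3′ minus 5′ signal (0.25, adjusted p = 0.749). Gabrb1 and Gabrg1 were dim on all 16 arrays. Their other probe sets, dim too, did not pass: the 3 of Gabrb1 differed by 0.04, 0.10 and 0.08 and the 1 of Gabrg1 by −0.03. Gabra2 and Cox7b2, which lie between them, each differed by 0.05 (adjusted p = 0.787 and 0.884). Their means were under 6.29 in controls and mutants (3.87 and 3.92 for Gabra2, 4.09 and 4.14 for Cox7b2), so a change may not be visible there. None of the 5 flanking genes shown passed either (Gnpda2 at 0.01, Commd8 at −0.13, Corin at 0.03, Nfxl1 at −0.14 and Zar1 at −0.04). Corin had means under 6.29 too, of 4.33 in controls and 4.35 in mutants.

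**Figure D3:**
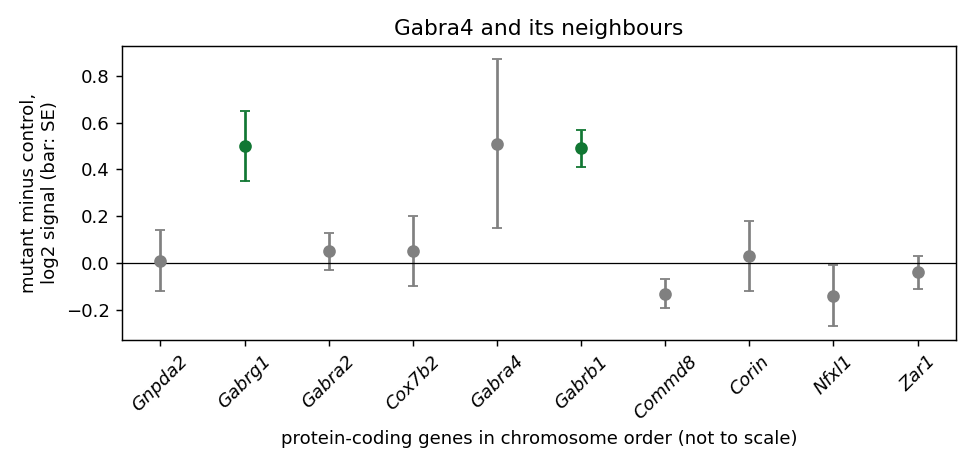
Mutant minus control difference in log2 signal (vertical axis, bars are SE, 8 arrays per group) of the protein-coding genes around Gabra4, in their order on chromosome 5. Green points passed the test: Gabrg1 and Gabrb1, at 0.50 and 0.49; Gabra4, at 0.51, has a wider error and did not.

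Beyond these, 57 other genes of GABA supply, breakdown, transport and reception were listed, of which 48 were measured. Of the 48, 3 rose, 2 fell and 43 did not pass, a called share of 10.4% beside 8.76% of all genes. Their median difference was 0.011, against −0.006 over all genes, and 24 of them had a mean signal under 6.29. With the replicate block 4 were called higher and 3 lower, where it called 17.6% of all genes. Combined with the acinar and immune means the block called 0 of the 48, where it called 13 higher and 4 lower of all 18193 genes. Combined with the 3′ minus 5′ signal it called Maob only, where it called 102 higher and 136 lower of all genes.

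Of the 5 measured genes of glutamate metabolism and uptake, 1 rose. Glud1, the glutamate dehydrogenase gene, went from 10.34 ± 0.07 (SD) to 10.62 ± 0.17, a difference of 0.28 ± 0.07 (SE, limma adjusted p = 0.0141), and its other probe set rose by 0.39 ± 0.06 (adjusted p = 0.000846 over probe sets). With the acinar mean as a covariate the difference was 0.20 (adjusted p = 0.0874), and without pairs 1 to 3 it was 0.30 (adjusted p = 0.0521). It was −0.03 (adjusted p = 0.992) when the block was joined by the acinar and immune means, and 0.12 (adjusted p = 0.798) when it was joined by the 3′ minus 5′ signal. Glul, which encodes glutamine synthetase, differed by −0.31 (adjusted p = 0.229, and 0.0216 with the block).

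Of the 4 breakdown genes besides Abat, 1 fell. This was Maob, for monoamine oxidase B, which oxidises amines and serves a route from putrescine to GABA rather than the loss of GABA itself. Maob ran from 11.42 to 11.98 in controls and from 10.39 to 11.05 in mutants, without overlap, and was lower by 0.60 to 1.23 in each of the 8 pairs. The difference was −0.94 ± 0.10 (SE), or 1.91-fold lower (limma adjusted p = 1.63e-05), and the call was lost when the block was joined by the acinar and immune means (−0.78, adjusted p = 0.208). Aldh5a1, the enzyme after Abat, and Aldh9a1, which makes GABA from an aldehyde, were at 0.08 and 0.01 (adjusted p = 0.801 and 0.977).

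Of the 7 measured transport genes, 0 passed limma's test, while 1, the creatine transporter gene Slc6a8, was higher at an unadjusted p under 0.05 and was called with the block (0.14, adjusted p = 0.0733, and 0.0451 with the block). The brightest, the taurine transporter gene Slc6a6, differed by 0.11 ± 0.09 (SE, limma adjusted p = 0.551). The plasma membrane GABA transporter genes Slc6a11, Slc6a12 and Slc6a13 were dim, with means of 4.96, 4.10 and 5.42 and differences of −0.05, 0.00 and 0.06. Lrrc8a, a subunit of the volume-regulated anion channel that can release GABA, differed by −0.05.

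Among 14 other GABA-A subunit genes, the 2 that rose were Gabrb1 and Gabrg1, and 13 of the 14 had means under 6.29. The exception was Gabrp, at 7.95, with a difference of −0.04 (limma adjusted p = 0.823). Of 9 scaffold and trafficking genes, 1 fell: Gphn, whose product gephyrin anchors GABA-A and glycine receptors and also serves molybdenum cofactor synthesis. Gphn ran from 9.14 to 9.51 in controls and from 8.84 to 9.10 in mutants, without overlap, and differed by −0.30 ± 0.06 (SE, adjusted p = 0.00495). The call was lost when the block was joined by the acinar and immune means (−0.39, adjusted p = 0.532) and when it was joined by the 3′ minus 5′ signal (−0.35, adjusted p = 0.117). Its other 2 probe sets, at −0.19 and −0.27, did not pass over probe sets (adjusted p = 0.252 and 0.0925).

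Of 7 measured GABA-B partner and potassium channel genes 0 passed limma's test, with 1 higher at an unadjusted p under 0.05 (Kctd16, 0.15), and of the 2 chloride cotransporter genes 0 passed at either level; the block called 0 of either group. The brightest of each, the auxiliary subunit gene Kctd12b and the chloride importer gene Slc12a2, differed by −0.11 ± 0.13 (SE) and 0.20 ± 0.12 (limma adjusted p = 0.717 and 0.38).

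**Figure D4:**
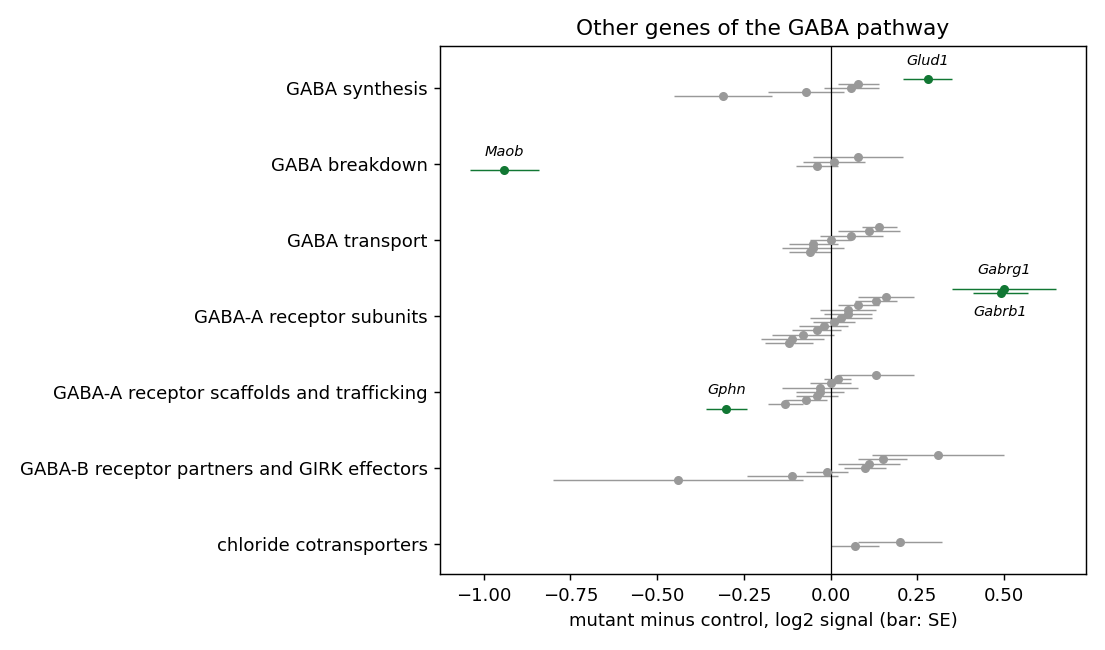
Mutant minus control difference in log2 signal (horizontal axis, bars are SE, 8 arrays per group) of the 48 other GABA pathway genes, by group. The 5 named green points passed the test: Maob at −0.94 and Gphn at −0.30 fell, and Glud1 at 0.28, Gabrb1 at 0.49 and Gabrg1 at 0.50 rose.

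The genes whose signal followed each of the 6 most closely over the 16 arrays were found by Pearson's r among all genes. They are given as a description, since the highest of many r is large in any such search. For Gad1 they were Cutc and Rragd (r = 0.902 and 0.882, and 0.811 and 0.698 for deviations from the group means), which themselves fell by 0.29 and by 0.50. For Abat they were Kctd13 and Lrrc24 (r = 0.910 and 0.908), with differences of −0.26 and −0.41. Gabbr1 was followed by Fam149a and BC051142 (0.897 and 0.881), and Gabra4 by Ddx39b and Prdx4 (0.880 and 0.854). For the dim Gad2 they were Orc1 and 9430014N10Rik (0.896 and 0.869), and for Slc32a1 Gpr50 and Htr4 (0.906 and 0.866).

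Among the 6 genes themselves, 15 pairs of deviations from the group means were correlated over the 16 arrays, and none passed after adjustment over the 15. These permutations shuffle arrays within groups and leave out the pairing by replicate number, so the p-values may be too small. Abat and Gabbr1 had the highest Pearson value (Pearson r = 0.82, permutation p = 0.0035, adjusted p = 0.053; Spearman rho = 0.67, permutation p = 0.0072, adjusted p = 0.054). Without the 2 arrays where the deviation of Abat was farthest from its median deviation, r was 0.50. Gad1 and Slc32a1 had a rank correlation of the same size and opposite sign (rho = −0.67, permutation p = 0.0071, adjusted p = 0.054). Their Pearson r was −0.45 (permutation p = 0.082, adjusted p = 0.27). It was −0.64 without the 2 arrays where the deviation of Gad1 was farthest from its median deviation. Gad1 and Abat, the synthesis and breakdown genes that were both lower on average in the mutant, gave a value near 0 (r = −0.12, permutation p = 0.68, adjusted p = 0.82; rho = −0.24, permutation p = 0.38, adjusted p = 0.61).

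**Figure D5:**
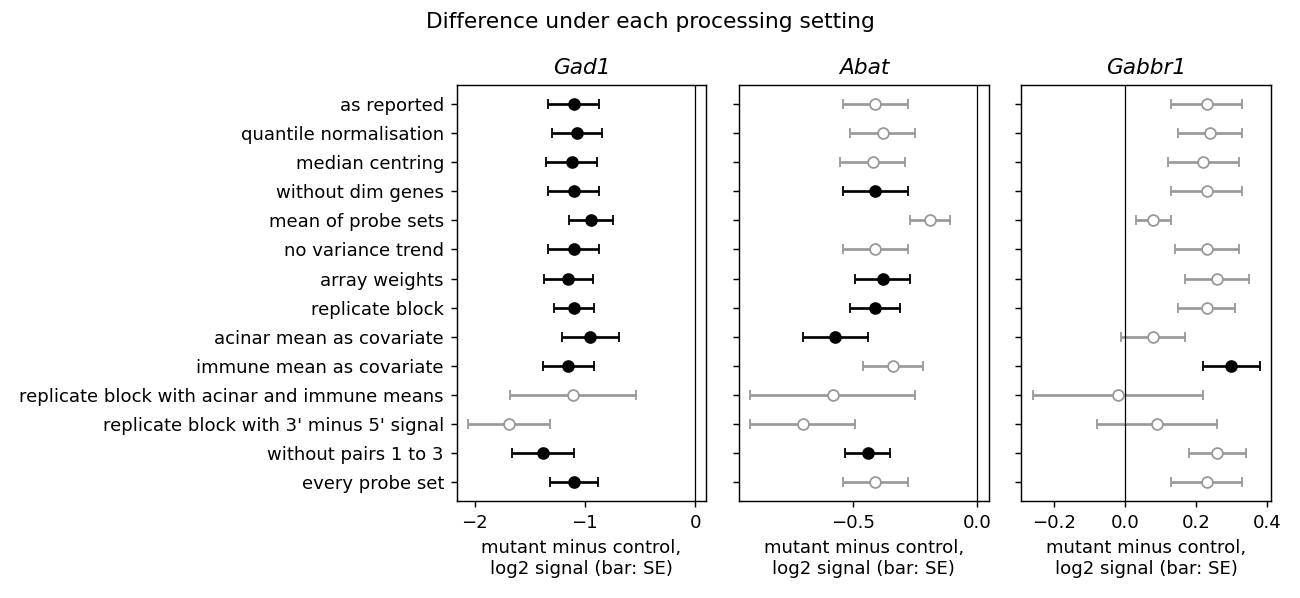
Mutant minus control difference in log2 signal (horizontal axis, bars are SE) of Gad1, Abat and Gabbr1 under each processing setting other than leaving out 1 array, with a scale of its own in each panel; filled black points have an adjusted p under 0.05. Gad1 is called in all but the 2 settings that add covariates to the replicate block, Abat in 5 alternatives and Gabbr1 in 1.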

How the data were processed

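Trizol was used to extract total RNA of the islets, of which 150 ng was labelled with an Affymetrix 3′ kit, per the labels' protocols. The values deposited by the authors are log2 signals, with 1 value for each probe set. How they were summarised and normalised is not given in the sources used here, and the log base was read from their range (2.74 to 15.39). Of 45101 probe sets, 64 were controls, 34945 named 1 gene, 932 several and 9160 none. For 34741 of those naming 1 gene, the symbol was read from RefSeq GRCm38.p6 by gene identifier, whether or not it changed. Each of 18193 genes took its brightest probe set, with no filter on dim genes. The test was two-sided, by lmFit and eBayes with a trend in limma 3.58.1 (R 4.3.3), with genotype as the only term and Benjamini-Hochberg adjustment over all genes. The steps were tested on simulated arrays, whose values were independent and held no pairing. They recovered 86 of 100 genes raised 1.5-fold and 97 of 100 raised 3-fold, and 7.6% of the calls were false. The series text counts 8 animals per group.

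The 2 groups have replicate numbers in common. Array deviations from the mean of their group correlated in each of the 8 same-numbered pairs (0.237 to 0.735), so the numbers were taken to pair the arrays, from the data rather than from a label. The members and lists were chosen with earlier results of these data known. Genes named are the members, each called gene of the pathway lists or, with none called, the brightest, the 2 genes most like each member, and Insm1. Others (Glul, Slc6a8, Kctd16, the GABA transporter genes, Lrrc8a, Gabrp, Aldh5a1, Aldh9a1 and neighbours of Gabra4) were named after their values were seen. Correlations of members used 100000 permutations within groups, without regard to the pairing. The promoter table of RefSeq held 6 of the 7 members. Other settings tried were centring on the median, quantile normalisation, a filter on dim genes, other uses of probe sets, no trend, array weights, the replicate block, marker and RNA quality covariates, and fewer arrays.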

Additional observations from a re-analysis of the deposited data

Results flagged for a closer look

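In groups of 8 arrays, a sample was singled out where its gap to the nearest other was too large a part of the group's range by Dixon's criterion. Of 28 groups checked (6 GABA genes and 8 named pathway genes), 3 had such a sample, and chance flags about 1 group in 20. Mutant replicate 1 was low for Abat, at 8.73 with the nearest mutant at 9.46, and low for Gabbr1, at 8.04 with the nearest at 8.43. The same array had the highest immune marker mean, 9.68, and the highest acinar mean of the mutant arrays, 14.27. The part of either in these values was not tested beyond the covariates and the fits without this array. Control replicate 1 was high for Gabrg1, at 4.59 with the nearest control at 4.13.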

How the results depend on the processing

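The fall of Gad1 kept its call in 11 of 13 alternatives (−1.38 to −0.94) and without any 1 array (−1.20 to −0.97). The exceptions combined the replicate block with the acinar and immune means (−1.11) or with the 3′ minus 5′ signal (−1.69), where 0 members were called lower and 4 and 136 of all genes were lower and 13 and 102 higher. Abat became called without dim genes (−0.41), with array weights (−0.38), with the replicate block (−0.41), with the acinar mean (−0.57) and without pairs 1 to 3 (−0.44), each giving 2 members called lower. In that order, these settings called 877, 878, 1767, 1157 and 448 of all genes fitted lower. Leaving out 1 array gave −0.46 to −0.30 for Abat, with 1 or 2 members called lower, and 0.19 to 0.30 for Gabbr1, with 0 or 1 called higher. Those fits called 655 to 917 of all genes lower and 641 to 769 higher. Gabbr1 was called with the immune mean (0.30), giving 1 member called higher, beside 829 of all genes.

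Gad2, Slc32a1 and Gabra4 were called in no alternative. The other pathway genes called higher were 0 with the block and both means, 0 with the block and the 3′ minus 5′ signal and 1 without pairs 1 to 3, and those called lower 0 and 1 under the first 2. Over all genes the replicate block called 1433 higher and 1767 lower, and leaving out pairs 1 to 3 gave 380 and 448. Glud1 was −0.03 with the block and both means (adjusted p = 0.992). The cause of these changes was not tested. Signals under the array medians limit what can be seen of Gad2, of Gabra4 and of most other receptor subunits.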
